A study of Homo sapiens with 5 samples.

Results

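OGT, OGA and the enzymes of the hexosamine biosynthetic pathway were examined for TEAD4 binding in LX-2 cells. The 7 genes, OGT, OGA, GFPT1, GFPT2, GNPNAT1, PGM3 and UAP1, were taken as a given list, and a TEAD4 peak was tied to a gene when its summit lay in the gene body or within 50 kb of any of its transcription start sites (TSSs). Of the 21113 peaks, 10 met this rule, at GFPT2 (3 peaks), GNPNAT1 (2), PGM3 (2) and UAP1 (3). No peak was tied to OGT, OGA or GFPT1.

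The cell line LX-2 derives from human hepatic stellate cells, the liver's precursors of matrix-producing myofibroblasts, and has a myofibroblastic phenotype. All samples had received the solvent DMSO only, and they comprised 3 TEAD4 chromatin immunoprecipitation (ChIP) replicates and 2 samples of input chromatin. The authors kept replicates 1 and 3, the only ones they found concordant enough, and the single list of peaks analysed here combines them. The data therefore hold no value per replicate and no second condition, so every value below is a description without a replicate error or a test. Sequencing depth is unknown.

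The hexosamine biosynthetic pathway converts a small part of the glucose entering a cell into UDP-GlcNAc, the sugar donor for protein glycosylation. GFPT1 and GFPT2 catalyse its first and rate-limiting step, in which glutamine gives an amino group to fructose phosphate. GNPNAT1 acetylates the resulting glucosamine phosphate, PGM3 moves the phosphate group, and UAP1 makes UDP-GlcNAc from the product. OGT transfers GlcNAc from UDP-GlcNAc to serines and threonines of nuclear and cytoplasmic proteins, and OGA removes it. TEAD4 is a DNA-binding partner of the coactivator YAP1, and the study examined how O-GlcNAcylation bears on TEAD4 in myofibroblasts. The genes of the modification itself are looked at here as places where TEAD4 binds.

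The sequences at 4 of the 10 summits are shown first. In 3 of them, TEAD or AP-1 letters were centred within 10 bp of the summit, and UAP1 peak 1 was the strongest of the peaks. Each is the plus strand of hg38, 5′ to 3′. The first 3 run 60 bp to either side of the summit, and that of PGM3 peak 2 is kept to 30 bases because it lies in an untranslated region. Capitals mark the AP-1 motif TGAGTCA in GFPT2 peak 3, the AP-1 motif TGACTCA followed by the E-box CAGATG in GNPNAT1 peak 2, the RUNX motif TGTGGTT read on the minus strand in UAP1 peak 1, and the TEAD core CATTCC read on the minus strand in PGM3 peak 2.
GFPT2 peak 3, chr5:180330946-180331066: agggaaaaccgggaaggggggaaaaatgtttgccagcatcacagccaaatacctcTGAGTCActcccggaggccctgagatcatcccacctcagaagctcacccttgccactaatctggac
GNPNAT1 peak 2, chr14:52834662-52834782: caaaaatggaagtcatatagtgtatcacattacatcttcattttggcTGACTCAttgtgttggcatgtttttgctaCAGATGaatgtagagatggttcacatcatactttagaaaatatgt
UAP1 peak 1, chr1:162538926-162539046: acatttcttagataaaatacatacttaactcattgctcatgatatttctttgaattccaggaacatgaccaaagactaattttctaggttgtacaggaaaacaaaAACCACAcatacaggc
PGM3 peak 2, chr6:83193867-83193896: gtccggagccctGGAATGcggcccaagcga

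The share of genes with a peak has to be read against the rest of the genome. Under the same rule, 11252 of 20033 protein-coding genes (56.2%) had a TEAD4 peak, beside 4 of the 7 genes here. Within 2.5 kb of a TSS, 3333 protein-coding genes (16.6%) had a summit, beside GFPT2 and PGM3 among the 7. At GFPT2 this close TSS is not that of the canonical transcript, as described below. The windows searched were of similar size for each gene, from 114.6 to 135.5 kb, with a median of 112.4 kb over all protein-coding genes.

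OGT, the only enzyme that adds O-GlcNAc to nuclear and cytoplasmic proteins, had no TEAD4 peak. The gene (ENSG00000147162.15, chrX:71533087-71575892, plus strand, 16 annotated TSSs) lay in a stretch of 470.9 kb without a summit. As long a stretch or a longer one held 27.7% of protein-coding genes. The nearest summit was 78665 bp upstream in an intron of TAF1, which encodes a subunit of the general transcription factor TFIID, and was 3851 bp from a TSS of that gene. Its signal value was 51.3, and 32.0% of the peaks in the list had a lower one. On the other side, the next summit lay 349434 bp beyond the end of the gene.

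The surroundings of OGT were poor in peaks at a larger scale too. Only 4 summits lay within 1 Mb of its canonical TSS, and 5.41% of protein-coding genes had fewer, with a median of 17. Chromosome X held 447 peaks, or 2.86 per Mb, against 6.84 per Mb over all chromosomes, and 283 of its 859 protein-coding genes (32.9%) had a peak under the rule. Among all chromosomes, only Y had a lower density, of 0.21 per Mb. The list therefore shows OGT without a peak on a chromosome where most genes had none.

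OGA, which removes O-GlcNAc, had no TEAD4 peak either. The gene (ENSG00000198408.14, chr10:101784443-101818465, minus strand, 10 TSSs) had its nearest summit 104534 bp from a TSS, and 72.8% of protein-coding genes had a nearer one. That peak, with a signal value of 72.7, was in an intron of FBXW4, an F-box protein gene. The next one on the other side, with a signal value of 93.3, was in an intron of ARMH3. OGA lay in a stretch of 278.8 kb without a summit, and as long a stretch or a longer one held 43.1% of protein-coding genes. At the scale of 1 Mb, OGA was not short of peaks, unlike OGT, with 21 summits around its canonical TSS, above the median of 17.

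GFPT1, the widely expressed form of the first enzyme, had no peak by the rule, but a summit lay close to its 3′ end. The gene (ENSG00000198380.13, chr2:69319780-69387250, minus strand, 5 TSSs) is 67471 bp long, so a summit 12381 bp past its end was still 79731 bp from the nearest TSS and fell outside the window. This intergenic peak had a signal value of 64.8, close to the median of the list (68.1), and the TEAD motif lay 22 bp from its summit. No annotated protein-coding or lncRNA TSS was nearer to it than that of GFPT1. Upstream, the next summit was 194698 bp away, with a signal value of 248.9. Within 1 Mb, 22 summits were found.

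GFPT2, the second enzyme of the first step, had 3 peaks, all inside the gene and all below the median of the list in signal. The gene (ENSG00000131459.13, chr5:180300698-180353336, minus strand, 6 TSSs) was one of the 19.4% of protein-coding genes with at least 3 peaks, overlapping peaks counted separately. With overlapping peaks merged GFPT2 had 2, and the share of all genes was not computed for merged peaks. Peak 1 (chr5:180332092-180332535) had a signal value of 17.1, with 3.84% of the list lower. Peak 2 (chr5:180331892-180332335) had a signal value of 42.3, with 19.5% lower. Peak 3 (chr5:180330784-180331227) had a signal value of 50.9, with 31.5% lower. None of the 3 reached the list's median of 68.1.

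The GFPT2 peaks formed a short cluster in introns, away from the start of the canonical transcript. Peaks 1 and 2 shared 244 bp and had summits 200 bp apart, so they may be read as 1 region, and the summit of peak 3 was 1108 bp from that of peak 2. The summits of peaks 1 and 2 lay 666 and 466 bp from the TSS of a shorter protein-coding transcript that starts within the gene. That of peak 3 lay 72 bp from the TSS of a transcript annotated without a defined coding sequence. From peak 1 to peak 3, the summits were 21022, 21222 and 22330 bp downstream of the canonical TSS. Peak 2 was centred on the TEAD motif, with the centre of the motif 0 bp from the summit. Peak 3 had an AP-1 motif 2 bp from its summit and further copies 101 bp or more away. Peak 1 was the weakest of the 10 peaks, with a q-value of 0.0123, against 1.72e-05 for each of the other 9. All 3 peaks were also within 50 kb of a TSS of MAPK9, which encodes the stress kinase JNK2.

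GNPNAT1, the acetyltransferase of the pathway, had 2 overlapping peaks far upstream. The gene (ENSG00000100522.10, chr14:52775193-52791668, minus strand, 6 TSSs) is 16476 bp long, the shortest of the 7. Peak 2 (chr14:52834500-52834943) had a signal value of 101, with 70.2% of the list lower, and its summit was 43054 bp upstream of the nearest TSS. Peak 1 (chr14:52834700-52835143) had a signal value of 34.2, with 9.30% lower, and its summit was 43254 bp away. Summits 200 bp apart and 244 shared bp again mark a single region with a strong and a weak call. The AP-1 motif of peak 2 was 10 bp from its summit, and the E-box was 18 bp from it.

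Other genes started nearer to the GNPNAT1 peaks than GNPNAT1 itself. Both summits were in an intron of the lncRNA gene ENSG00000285664. The nearest TSS was that of another lncRNA gene, ENSG00000258698, at 14888 bp from peak 1 and 14688 bp from peak 2. FERMT2, which encodes the integrin activator kindlin-2, followed at 26381 and 26581 bp. These were also the member peaks nearest to the limit of the rule, and the next summit upstream, with a signal value of 38.2, was 88548 bp away in an intron of FERMT2. GNPNAT1 had no peak within 10 kb.

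PGM3, the mutase, was the only gene of the 7 with a peak within 2.5 kb of its canonical TSS. The gene (ENSG00000013375.17, chr6:83147324-83193936, minus strand, 23 TSSs) had its strong peak, peak 2, at chr6:83193816-83193990. The signal value was 138.6, with 82.1% of the list lower, and at 175 bp this was the narrowest of the 10 peaks. The summit lay in a PGM3 untranslated region, 25 bp from an alternative TSS and 624 bp upstream of the canonical one. Over all protein-coding genes, 1.79% had a nearer summit. A TEAD core on the minus strand was 8 bp from the summit.

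The PGM3 promoter peak cannot be assigned to PGM3 alone. PGM3 and RWDD2A start close together on opposite strands, and the summit was also in an intron of RWDD2A, 532 bp from its TSS. Peak 1 of PGM3 (chr6:83215106-83215549) was weaker, with a signal value of 41.6 and 18.6% of the list lower. It lay 21392 bp upstream of a PGM3 TSS, in an intron of ME1, the gene of the cytosolic malic enzyme. Its E-box was 6 bp and its TEAD core 28 bp from the summit. Outside the rule, a stronger peak followed 77802 bp upstream, also within ME1, with a signal value of 189.3 and 2 copies of the TEAD motif 3 and 28 bp from its summit.

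UAP1, which makes UDP-GlcNAc, had the strongest peak among the 10. The gene (ENSG00000117143.14, chr1:162561722-162601240, plus strand, 3 TSSs) had peak 1 at chr1:162538808-162539172, 22736 bp upstream of its canonical TSS. The signal value was 212.7, with 92.0% of the list lower, and the peak ranked 1693 of 21113. Peak 2 (chr1:162541748-162542191) lay between peak 1 and the gene, 19752 bp upstream, with a signal value of 40.6 and 17.1% of the list lower. Their summits were 2984 bp apart in intergenic sequence. The closest TSS to both was that of UAP1-DT, the lncRNA that starts divergently from the UAP1 promoter, and UAP1 itself was next. Both were also within 50 kb of UHMK1, a kinase gene.

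Peak 3 of UAP1 (chr1:162632322-162632574) belongs to the rule by a minor transcript. Its summit, with a signal value of 170.2 and 87.5% of the list lower, was on a TSS of DDR2, at 0 bp, in a DDR2 exon. DDR2 is a receptor tyrosine kinase for fibrillar collagen. The summit was 35205 bp from the TSS of a UAP1 transcript annotated as a retained intron and 70724 bp from the canonical UAP1 TSS. With canonical transcripts only, UAP1 kept peaks 1 and 2. Further downstream, 3 more summits in DDR2 introns lay 66011, 81369 and 93849 bp from a UAP1 TSS and were outside the rule.

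By rank in the list, the 10 peaks ran from near the bottom, with 3.84% of the peaks lower, to 92.0% lower. Their signal values ran from 17.1 to 212.7 with a median of 46.6, against a median of 68.1 and a highest value of 1074 over the list. Each of GNPNAT1, PGM3 and UAP1 had at least 1 peak above the list's median, and GFPT2 had none. The highest IDR score, 1000, which marks the most repeatable ranks between the replicates, was reached by 6 of the 10 and by 76.1% of the list. The lowest scores of the 10 were 933 at UAP1 peak 2 and 941 at PGM3 peak 1, above the list's minimum of 830. GC content ran from 29.4% at GNPNAT1 peak 1 to 64.2% at PGM3 peak 2, with a median of 48.0% against 44.8% for the list.

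The TEAD motif was found at few of these peaks. ACATTCC was present on either strand within 100 bp of the summit in 1 of 10 peaks, GFPT2 peak 2, and in 23.0% of the list. With the 6-base core CATTCC, which every ACATTCC contains, this rose to 3 of 10, the others being both PGM3 peaks, against 46.8% of the list. The AP-1 motif, TGACTCA or TGAGTCA, was found in GFPT2 peak 3 and GNPNAT1 peak 2, against 25.4% of the list. The RUNX motif TGTGGTT was found in UAP1 peak 1, against 9.53%. The E-box CAGATG was found in 4 of 10, at both GNPNAT1 peaks, PGM3 peak 1 and UAP1 peak 2, against 16.7%. GFPT2 peak 1 and UAP1 peak 3 held none of these letters within 100 bp. With 10 peaks, 2 pairs of which overlap, these shares are a description only, and a match does not show which factor was bound.

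The promoters of the 7 genes were compared with the peaks through RefSeq windows of 250 bases before to 50 bases after each annotated start (GRCh38.p14). The 7 genes had 10 such windows, 2 for PGM3 and 3 for UAP1, and only 1 of the PGM3 windows overlapped a TEAD4 peak. The GC content of the windows ran from 57.7% at OGT, below the median of 58.7% over 35116 promoters, to 79.3% at GNPNAT1. Only the OGA window was counted with the TEAD motif, which 3.46% of all promoters held. None was counted with the AP-1, RUNX or E-box letters, which 4.95%, 4.27% and 14.7% of all promoters held. The TEAD core of PGM3 peak 2, at chr6:83193879-83193884, lies inside the PGM3 window chr6:83193851-83194150, whose count of the core was 0. The motif counts over these windows may therefore be incomplete. The OGA site, 142 bp upstream of the canonical OGA TSS, is printed because it held the full letters with no peak in the list. Below it are the summits nearest to GFPT1 and PGM3 outside the rule, which had both a peak and the letters. All are on the plus strand of hg38, with ACATTCC in capitals and written as GGAATGT where it was read on the minus strand.
OGA promoter, chr10:101818559-101818619: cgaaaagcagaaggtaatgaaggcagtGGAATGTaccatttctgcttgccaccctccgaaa
Peak past the 3′ end of GFPT1, chr2:69307339-69307459: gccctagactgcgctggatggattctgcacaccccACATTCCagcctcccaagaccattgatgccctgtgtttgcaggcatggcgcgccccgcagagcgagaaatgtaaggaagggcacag
Peak in ME1 upstream of PGM3, chr6:83271678-83271798: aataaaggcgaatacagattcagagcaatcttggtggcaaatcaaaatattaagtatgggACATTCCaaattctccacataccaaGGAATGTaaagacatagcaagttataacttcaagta

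Of 36 other genes around the pathway, in 3 lists, 23 had a peak by the rule and 7 had one within 2.5 kb of a TSS, beside the 56.2% and 16.6% of all protein-coding genes. Among the 9 genes of precursor supply (glucose uptake, hexokinases and glutamine), 7 had a peak, with 25 peaks in all. Among the strongest were those at SLC38A2, a glutamine transporter (signal value 256.4), and SLC2A3, the glucose transporter GLUT3 (169.8). The SLC2A3 peak held the TEAD motif, but its nearest TSS was that of the lncRNA gene ENSG00000288043, and for the SLC38A2 peak it was that of SLC38A4-AS1.

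The median gene of the other lists had 1 peak, against 2 for precursor supply, and the median of the strongest peaks was 59.9 in the branch of salvage, catabolism and sialic acid and 64.6 in transport and use, against 108.2. In the salvage, catabolism and sialic acid branch, 6 of 10 genes had a peak, with 9 peaks in all. NANP, the phosphatase of sialic acid synthesis, had the strongest (195.3), 56 bp from a TSS, although a TSS of ZNF337-AS1 was nearer. NANS, the sialic acid synthase, followed at 83.4, and GNE, the epimerase that starts the branch from UDP-GlcNAc, at 66.7 with its summit 35 bp from a TSS. For the transport and use of UDP-GlcNAc, 10 of 17 genes had a peak, with 20 in all. SLC35D2, a nucleotide sugar transporter, had a peak of 631.7 that ranked 42 in the list and held the TEAD motif, 36978 bp from its TSS and nearer to that of the lncRNA gene ENSG00000287302. The N-glycan branching enzymes MGAT5 (102.9) and MGAT4A (85.7) came next, and TSSs of TMEM163 and LINC02611 were nearer to those peaks.

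Textbook target genes of YAP and TEAD were counted as a check of the list, since no RNA was measured in these samples. All 6 (CCN1, CCN2, ANKRD1, AMOTL2, AJUBA and LATS2) had a peak within 2.5 kb of a TSS, with 40 peaks in all. The strongest peak of each had a signal value from 351.5 to 765.3, with a median of 565. For CCN2, AJUBA and LATS2 this peak lay within 2.5 kb of a TSS. For CCN1, AMOTL2 and ANKRD1 it lay 25997, 39746 and 10185 bp from a TSS. TSSs of ENSG00000230285 and LINC02004 were nearer to those of CCN1 and AMOTL2. The strongest peaks of GFPT2, GNPNAT1, PGM3 and UAP1 had a median of 119.8, and the highest of them, 212.7, was below all 6. The strongest was taken from 2 or 3 peaks for each of these genes and from 4 to 10 for each target. A highest value tends to rise with the number of peaks.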

How the data were processed

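TEAD4 ChIP-seq of LX-2 cells was deposited as 1 list of peaks (3 ChIP replicates and 2 inputs were sequenced, and replicates 1 and 3 were used). The authors mapped reads to hg38 with Chromap and ran the ENCODE IDR pipeline. The peak caller for TEAD4 is not given in the sources used here. For each peak the authors deposited an IDR score (a scaled irreproducible discovery rate, whose lowest value of 830 stands for an IDR of 0.01), a signal value, a −log10 q-value, and positions with a summit offset. These meanings were read from the layout of the list. A low or missing peak can reflect depth, which is unknown, and the list holds only peaks that ranked alike in both replicates.

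Summits were compared with GENCODE release 44 genes on the same build, in windows of 50 kb and 2.5 kb around all TSSs. All peaks ended within the hg38 chromosomes used. The letters of each motif were looked for on either strand, up to 100 bp from a summit. Promoter windows came from RefSeq (GRCh38.p14), all 7 genes were matched, and the windows equalled hg38. Python 3.11.15, numpy 2.4.6, pandas 2.3.3, pysam 0.24.0 and matplotlib 3.10.9 were used, and the code was checked on simulated data.

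The 7 genes, the lists of other genes, the motifs and the windows were chosen with earlier results of these data known. Named were all 7 genes, the 3 genes of each list with the strongest peak, and the gene with the TSS nearest to each of the 10 peaks. One gene that this rule names and 1 sequence are not reported here. Further genes were named for their place around these peaks after their values were seen. No test was run, since there is 1 condition and no value per replicate. Alternatives changed the windows, the transcripts, the set of peaks and the motif.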

Additional observations from a re-analysis of the deposited data

How the results depend on the processing

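Over 6 results, 38 alternatives were run, 36 planned and 2 added after the data were seen. In 21 the value stayed within 1.5 times that reported, or for the median signal value did not change, and in 17 it moved. The number of the 7 genes with a peak fell from 4 to 2 at 10 kb (GFPT2 and PGM3) and to 2 when the nearest TSS had to be that of the gene, an added alternative. By distance to a TSS alone, with gene bodies left out, 28.0% of protein-coding genes had a summit within 10236 bp. The 10 peaks became 4 at 10 kb, 17 at 100 kb, 6 with the highest IDR score, 4 with signal values above the median and 5 when the nearest TSS had to be that of the gene. At 100 kb, OGT and GFPT1 each gained 1 peak and OGA none. Over all protein-coding genes, 28.3% had their nearest summit more than 100 kb from a TSS. Genes with a peak within 2.5 kb went from 2 to 1 with canonical transcripts and to 1 above the median signal value, each time without GFPT2. The median signal value of 46.6 became 42.3 with canonical transcripts, 119.8 with the highest IDR score and 76.0 with overlapping peaks merged. With the highest IDR score or merged peaks it was thus above 68.1, the median of the whole unmerged list. Medians of the list under those settings are not given, so whether it stayed below the list's median there is unknown. Peaks with the TEAD motif went from 1 to 2 within 250 bp, 3 with 6 bases and 0 with the highest IDR score. The other genes of the pathway with a peak went from 23 to 15 at 10 kb and 12 above the median signal value. The share of all protein-coding genes with a peak above the median signal value was not computed. At 10 kb only the share by TSS distance, given above, is available. In each case the alternative changes which peaks, transcripts or letters are counted. No paired analysis was possible because both replicates went into a single list, which also kept any one of them from being left out.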
